A study of Mus musculus with 11 samples.

Results

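The replication-dependent histone genes of linker histone H1 and of the core histones H3 and H4 were taken as all genes whose symbol begins with Hist1 to Hist4 followed by h1, h3 or h4. Of the 53801 genes counted, 53620 had a symbol and 31 met this rule: 6 H1 genes, 12 H3 genes and 13 H4 genes. By cluster, 26 belonged to Hist1, 4 to Hist2 (*Hist2h3b*, *Hist2h3c1*, *Hist2h3c2* and *Hist2h4*) and 1 to Hist4 (*Hist4h4*), while 0 members carried a Hist3 name. RNA of neural progenitor cells (NPCs) cultured from the brains of E13.5 mouse embryos was measured in 11 libraries, 1 per embryo and condition. All cells were *Smg6* Flox/Flox on a C57BL/6 background mixed with 129SV, grown with EGF and bFGF. The Ctr group (n = 3, embryos SMH_128, SMH_132 and SMH_133) carried RosaCreER tg/+ and received no 4-OHT, the drug that switches on the Cre recombinase. The Ctr + 4-OHT group (n = 4, embryos SMH_125, SMH_126, SMH_129 and SMH_131) was RosaCreER +/+, so it had no inducible Cre, and received 4-OHT. The *Smg6*-iKO group (n = 4, embryos SMH_127, SMH_128, SMH_132 and SMH_133) carried RosaCreER tg/+ and received 4-OHT, which deletes *Smg6* in any cell that expresses the recombinase. The labels give a dose of 1 µM and 3 days of incubation, and the series' design places the RNA 6 days after 4-OHT was first added. Embryos SMH_128, SMH_132 and SMH_133 gave both a Ctr and a *Smg6*-iKO library. Values per library are listed below in the order of embryos just given.

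Replication-dependent histone mRNAs are made in S phase, when new DNA is packed into nucleosomes. H3 and H4 form the centre of the nucleosome, and H1 binds the linker DNA between nucleosomes. These mRNAs have no introns and no poly(A) tail, and all 31 members are annotated with 1 exon. They end in a short conserved stem-loop that is bound by SLBP, the stem-loop binding protein, which carries the message through processing, export and translation. When DNA replication stops, the mRNAs are rapidly degraded, a step that uses the helicase UPF1, which also works in nonsense-mediated mRNA decay (NMD). SMG6 is the endonuclease of NMD. The libraries were prepared from total RNA after removal of ribosomal RNA, without selection for poly(A), so that these mRNAs could be counted.

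The histone stem-loop was searched in the annotated transcripts after the stop codon, as a 6-base-pair stem starting with GG around a 4-base loop starting with TT. It was found in 23 of the 31 members. 4 members (*Hist1h1b*, *Hist1h3h*, *Hist1h3i* and *Hist1h4k*) are annotated with 0 bases after the stop codon, so it could not be looked for, and in 4 others (*Hist1h1a*, *Hist1h3g*, *Hist1h4a* and *Hist2h3b*) these letters were not in the annotated window. Only 5 different stem-loops occurred. One was shared by 8 H1 and H3 genes, the next by 7 H4 genes, and the rest by 4, 2 and 2 genes. One gene is shown for each, as DNA letters in the sense of the mRNA, with the stem and loop in capitals and 5 flanking bases on either side, on GRCm38.
Hist1h3d (chr13:23576239-23576264, forward strand): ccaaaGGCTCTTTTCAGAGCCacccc
Hist1h4f (chr13:23551286-23551311, reverse strand): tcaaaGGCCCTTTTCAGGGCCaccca
Hist1h3c (chr13:23745042-23745067, reverse strand): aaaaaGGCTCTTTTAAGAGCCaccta
Hist1h4i (chr13:22040961-22040986, reverse strand): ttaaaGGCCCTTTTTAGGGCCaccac
Hist1h4b (chr13:23757361-23757386, forward strand): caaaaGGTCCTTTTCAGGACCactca

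The members also share much of their coding sequence, and this decides which of their reads could be counted. Translated, the 13 H4 genes gave a single protein of 103 residues with the first methionine. The 12 H3 genes gave 2 proteins of 136 residues that differed at 1 residue: the first from 8 genes (*Hist1h3b* to *Hist1h3f* and the 3 Hist2 H3 genes), the second from 4 (*Hist1h3a*, *Hist1h3g*, *Hist1h3h* and *Hist1h3i*). The 6 H1 genes gave 6 different proteins of 209 to 223 residues. Reads that mapped to several places were not counted. Each transcript was therefore cut into windows of 50 bases, the read length, and compared with the transcripts of all other genes. Genes that overlap a member at its own place, as in *Hist1h1e* and *Hist2h3c1*, were left out of this comparison. In *Hist1h1a*, *Hist1h1b* and *Hist1h1t* 100% of windows occurred in no other gene, and in *Hist1h1c*, *Hist1h1d* and *Hist1h1e* 91.5% to 97.7% did. The share fell to 12.4% in *Hist1h3i* and 6.08% in *Hist1h3h*, whose annotation holds the coding sequence alone. Levels of H3 and H4 genes are hence lower limits, and their order within a library depends on how much of each gene is distinct. The same stretches went uncounted in every library. The windows do not cover reads that run past the annotated ends. Some annotations run far past the stem-loop, with 4931 bases after the stop codon in *Hist1h1d*, 2515 in *Hist4h4* and 1311 in *Hist2h4*. Counts and windows of these genes include that part, and counts per gene do not show how many reads fell there.

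**Figure D1:**
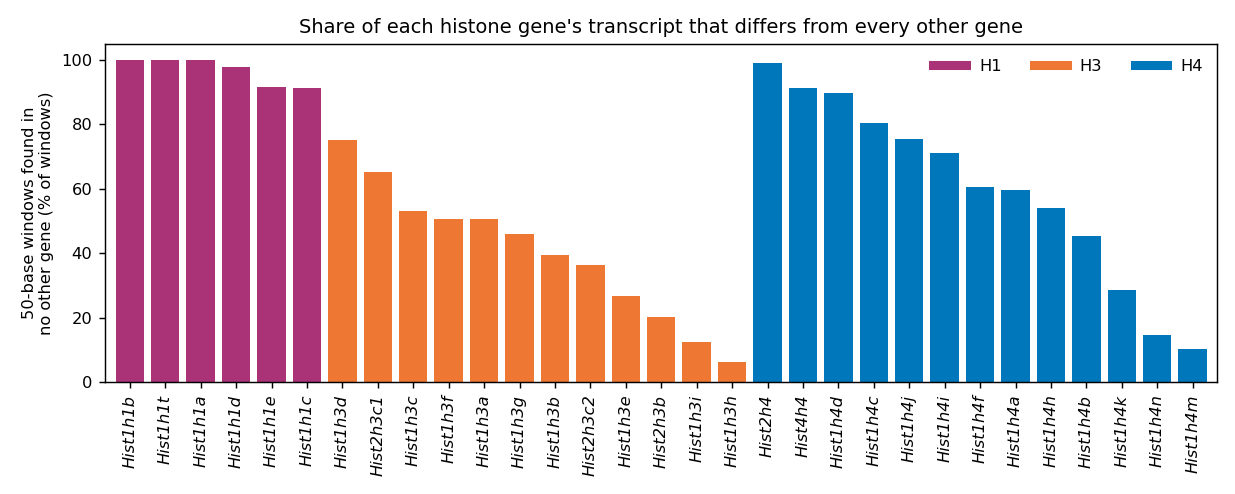
Share of 50-base windows of each transcript (vertical axis, percent) that occur in no other annotated gene, for the 31 members grouped by histone type. Genes that overlap a member at its own place were not compared. The bars run from 6.08% in *Hist1h3h* to 100% in 3 H1 genes, and 20 of the members have at least 50%.

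The libraries held from 26418249 to 33756875 counted reads. Levels are given in CPM, the read count relative to the total of its library, after TMM scaling over the 11 libraries. *Smg6* itself, counted over the whole gene, had 69.4, 79.4 and 74.3 CPM in Ctr, 66.5, 72.0, 72.3 and 66.6 CPM in Ctr + 4-OHT and 62.5, 62.3, 71.9 and 67.5 CPM in *Smg6*-iKO, and its groups overlapped. Over the whole gene the log2 fold change was -0.059 (SE 0.066, edgeR adjusted p = 0.703) against Ctr + 4-OHT and -0.17 (SE 0.071, edgeR adjusted p = 0.148) against Ctr, a comparison that with the embryo as a block gave -0.15 (edgeR adjusted p = 0.043). A count over the whole gene does not show whether the floxed part was lost. The cultures carried the markers of their labelled type, with the 10 neural progenitor markers (*Sox2*, *Nes*, *Pax6* and others) summing to 5461 to 7085 CPM per library. The 4 microglial markers summed to at most 1.26 CPM and the 3 erythroid markers to at most 0.0959 CPM. The summed neuronal markers ranged from 1737 to 1916 CPM in Ctr, 1598 to 2600 CPM in Ctr + 4-OHT and 2025 to 2336 CPM in *Smg6*-iKO.

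The histone genes together were lower in *Smg6*-iKO than in either control. The 31 members summed to 4638, 4239 and 4987 CPM in Ctr, 4586, 4201, 4709 and 4255 CPM in Ctr + 4-OHT and 3198, 3562, 3285 and 3654 CPM in *Smg6*-iKO. Every *Smg6*-iKO library lay below every control library. The mean of Ctr was 4621 ± 374 CPM (SD, n = 3), that of Ctr + 4-OHT 4438 ± 248 CPM (SD, n = 4) and that of *Smg6*-iKO 3425 ± 218 CPM (SD, n = 4), a difference of -22.8% from Ctr + 4-OHT and -25.9% from Ctr. Between the controls the difference was -3.98%, and their libraries overlapped. Since these are bulk cultures, fewer cells in S phase and less histone mRNA per cell cannot be told apart.

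The difference was present in each histone type. H1 genes summed to 1615, 1844, 1609.8 and 1754 CPM in *Smg6*-iKO against 2265, 2162, 2517 and 2140.01 CPM in Ctr + 4-OHT and 2291, 2103 and 2435 CPM in Ctr. H3 genes summed to 587, 653, 609 and 681 CPM in *Smg6*-iKO against 857, 777, 846 and 832 CPM in Ctr + 4-OHT and 875, 792 and 976 CPM in Ctr. H4 genes summed to 997, 1065, 1066 and 1219.8 CPM in *Smg6*-iKO against 1464, 1262, 1345 and 1284 CPM in Ctr + 4-OHT and 1472, 1345 and 1576 CPM in Ctr. In each type every *Smg6*-iKO library was below every control library, with the H4 sum of embryo SMH_133 nearest to the controls. The mean differed from Ctr + 4-OHT by -24.9% for H1, -23.6% for H3 and -18.8% for H4, and from Ctr by -25.1%, -28.2% and -25.8%. The types took similar shares of the sum in each group: H1 made up 49.3% of the summed CPM in Ctr, 51.2% in Ctr + 4-OHT and 49.8% in *Smg6*-iKO, and H3 19.0%, 18.7% and 18.5%. These sums carry no test.

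**Figure D2:**
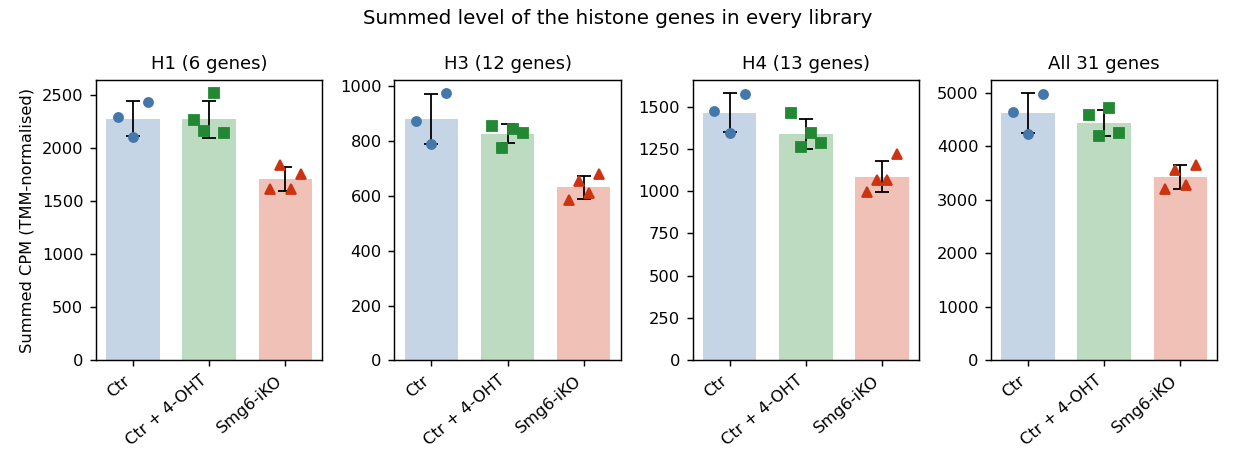
Summed CPM (vertical axes from 0) of the H1, H3 and H4 genes and of all 31 genes in each library. Points are libraries, bars the group means and error bars the SD, with 3 Ctr, 4 Ctr + 4-OHT and 4 *Smg6*-iKO libraries. In all panels the *Smg6*-iKO points lie below the control points.

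The same held within embryos. In the embryos SMH_128, SMH_132 and SMH_133, the sum over all members in *Smg6*-iKO was 0.768, 0.775 and 0.733 times that in Ctr. For H1 the ratios were 0.805, 0.766 and 0.72, for H3 0.747, 0.77 and 0.697 and for H4 0.723, 0.793 and 0.774. Of the 29 members tested against both controls, 26 were lower in *Smg6*-iKO in embryo SMH_128, 28 in embryo SMH_132 and 26 in embryo SMH_133, with median log2 ratios of -0.42, -0.37 and -0.42. The 3 members that were not lower in all 3 embryos were *Hist1h1t*, *Hist1h4n* and *Hist2h3c2*, which had the lowest levels of the 29.

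Gene by gene, edgeR tested 29 of the 31 members in the comparison of *Smg6*-iKO with Ctr + 4-OHT. Both groups received 4-OHT, but they came from different embryos and only *Smg6*-iKO carried the recombinase. No group had the active recombinase without the floxed gene, so its effect and that of *Smg6* loss cannot be told apart. 13 members were lower and 0 higher at an adjusted p under 0.05. Over all 17558 genes tested, 0.416% were called lower and 0.757% higher. The members' median log2 fold change was -0.35, against 0.012 over all genes, and 28 of 29 were below 0. 26 members had an unadjusted p under 0.05 (16.7% of all genes in either direction), all of them lower, and DESeq2 and limma-voom also called 0 members higher. The called members fell by 18.4% (*Hist1h3e*) to 31.4% (*Hist1h3a*). By type, 3 of 6 H1 genes, 8 of 11 H3 genes and 2 of 12 H4 genes were called, with median log2 fold changes of -0.41, -0.41 and -0.32. In 18 members every *Smg6*-iKO library lay below every Ctr + 4-OHT library, which was the case for 5.99% of all genes. The number called depended on single libraries: it was 2 without *Smg6*-iKO of embryo SMH_127 or of embryo SMH_132, 4 and 7 without Ctr + 4-OHT of embryo SMH_131 or SMH_125, and 8 without *Smg6*-iKO of embryo SMH_133. Of all genes, 0.062% to 0.23% were called lower in these fits. The median over the members stayed between -0.41 and -0.32 in these fits. DESeq2's Wald test called 22 members lower (3.39% of all genes), and edgeR with a correction for gene length called 7 (0.387% of all genes).

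Against Ctr, the untreated cells of the same genotype, 23 of 29 members were lower and 0 higher. The background was 4.98% of 17974 genes called lower and 4.27% called higher. The median was -0.42 (all genes 0.0055), with 28 of 29 below 0 and 24 at an unadjusted p under 0.05 (26.9% of all genes). Neither DESeq2 nor limma-voom called a member higher. The called members fell by 21.1% (*Hist1h1c*) to 33.2% (*Hist1h3g*). They comprised 5 of 6 H1 genes, 8 of 11 H3 genes and 10 of 12 H4 genes. In 19 members the libraries did not overlap, compared with 11.9% of all genes. With the embryo as a block 26 members were called lower, against 11.2% of all genes in that fit. Those gained were *Hist1h3h*, *Hist1h3i* and *Hist2h4*. With the length correction alone 18 members were called (5.56% of all genes), with a median of -0.33. Without Ctr of embryo SMH_128 or of embryo SMH_133, 14 members were called, with 1.64% and 3.52% of all genes lower.

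11 members were called lower against both controls, compared with 0.343% of the 17512 genes tested in both comparisons. They were *Hist1h1b*, *Hist1h1d*, *Hist1h1e*, *Hist1h3a*, *Hist1h3b*, *Hist1h3c*, *Hist1h3d*, *Hist1h3e*, *Hist1h3g*, *Hist1h4f* and *Hist1h4i*. In 15 members every *Smg6*-iKO library was below all 7 control libraries (3.6% of all genes). The comparisons share the *Smg6*-iKO libraries and are not independent. 12 members were called against Ctr alone, namely *Hist1h1a*, *Hist1h1c*, *Hist1h3f*, *Hist1h4a*, *Hist1h4b*, *Hist1h4c*, *Hist1h4d*, *Hist1h4h*, *Hist1h4j*, *Hist1h4k*, *Hist2h3b* and *Hist4h4*. Their log2 fold changes against Ctr + 4-OHT lay between -0.44 and -0.23. *Hist1h3h* and *Hist1h3i* were called against Ctr + 4-OHT alone. *Hist1h1t*, *Hist1h4n*, *Hist2h3c2* and *Hist2h4* were called in neither.

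The comparison of Ctr + 4-OHT with Ctr asks how cells with 4-OHT but no deletion differ from untreated ones, and it also holds the difference in embryos and in the RosaCreER transgene, which only Ctr carries. It called 0 of 28 members lower and 0 higher with edgeR, and DESeq2 and limma-voom also called 0. Over all 17665 genes 0.181% were called lower and 0.0396% higher. 4 members had an unadjusted p under 0.05 (8.28% of all genes): *Hist1h3h* at 0.31 on the log2 scale, *Hist1h3e* at -0.18, *Hist1h3f* at -0.21 and *Hist1h4d* at -0.21. The median was -0.054, and 17 of 28 were below 0. In H4 genes 9 of 12 were below 0 with a median of -0.10, while in H1 genes 2 of 5 were, with a median of 0.035.

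**Figure D3:**
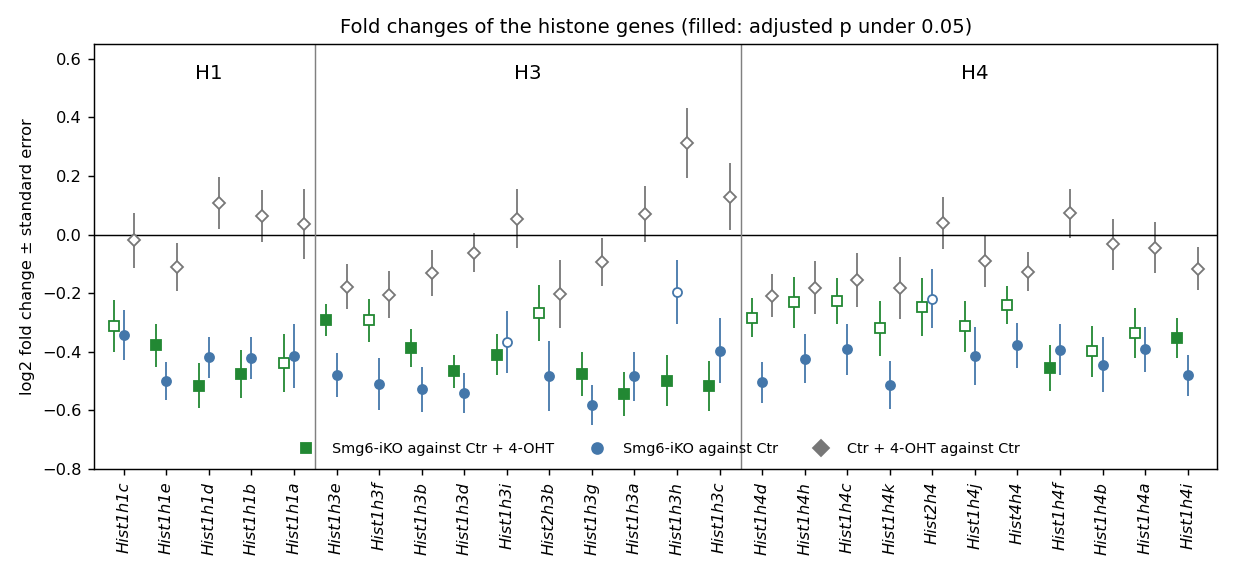
Log2 fold change with its standard error (vertical axis) of 26 members in the 3 comparisons, ordered by type and level. Filled symbols have an edgeR adjusted p under 0.05. *Hist1h1t*, *Hist1h4n* and *Hist2h3c2*, with the lowest levels, are left out. All squares and circles (*Smg6*-iKO against either control) lie below 0, and no diamond (Ctr + 4-OHT against Ctr) is filled.

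Among the H1 genes, *Hist1h1d* (ENSMUSG00000052565, chr13:23553262-23560686) had the smallest p against Ctr + 4-OHT. It encodes one of the somatic linker histones, which most dividing cells make. Its annotated transcript is 7425 bases long, on which its level of 59.9 CPM per kb rests. It stood at 476, 439 and 510.3 CPM in Ctr, 519.7, 467, 575 and 485 CPM in Ctr + 4-OHT and 339, 382, 334 and 367 CPM in *Smg6*-iKO. All *Smg6*-iKO values were below all control values. The log2 fold change was -0.52 (SE 0.077, edgeR adjusted p = 0.0128) against Ctr + 4-OHT and -0.42 (SE 0.069, edgeR adjusted p = 0.00691) against Ctr. *Hist1h1b* (chr13:21779883-21780625), another somatic linker histone, had 271, 263 and 301 CPM in Ctr, 279.9, 258, 326 and 299 CPM in Ctr + 4-OHT and 204, 206, 191 and 229 CPM in *Smg6*-iKO. Again the groups did not overlap. It changed by -0.48 (SE 0.082, edgeR adjusted p = 0.0259) and -0.42 (SE 0.072, edgeR adjusted p = 0.00794) on the log2 scale. *Hist1h1e* (chr13:23620629-23622558) overlaps *Hist1h2be* and *Gm11398* on the same strand, and reads in the shared part were not counted. It had 643, 601 and 681 CPM in Ctr, 572, 584, 666 and 554 CPM in Ctr + 4-OHT and 429, 493, 438 and 456 CPM in *Smg6*-iKO. Here too no *Smg6*-iKO library reached a control library, with log2 fold changes of -0.38 (SE 0.074, edgeR adjusted p = 0.0407) and -0.50 (SE 0.066, edgeR adjusted p = 0.00268).

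*Hist1h1c* (chr13:23738808-23740367) had the highest level per annotated length of the H1 genes, 427 CPM per kb over the 11 libraries. This order rests on the annotated lengths of 1560 bases in *Hist1h1c*, 1930 in *Hist1h1e* and 7425 in *Hist1h1d*. *Hist1h1c* had 765, 655 and 759 CPM in Ctr, 729, 722, 786 and 628 CPM in Ctr + 4-OHT and 533, 656, 535 and 566 CPM in *Smg6*-iKO. *Smg6*-iKO of embryo SMH_128 lay among the lower control libraries and the other 3 below all of them. The log2 fold change of -0.31 (SE 0.088, edgeR adjusted p = 0.118) did not pass the test against Ctr + 4-OHT, and that against Ctr was -0.34 (SE 0.084, edgeR adjusted p = 0.0317). *Hist1h1a* was called against Ctr alone, at -0.41 (SE 0.11, edgeR adjusted p = 0.0415), with -0.44 (SE 0.10, edgeR adjusted p = 0.0706) against Ctr + 4-OHT. *Hist1h1t* (chr13:23695814-23696725) encodes the testis linker histone. It was near the limit of detection in every library, with 0.208, 0.256 and 0.421 CPM in Ctr, 0.335, 0.268, 0.517 and 0.283 CPM in Ctr + 4-OHT and 0.408, 0.44, 0.18 and 0.475 CPM in *Smg6*-iKO, and its groups overlapped. Its log2 fold changes were 0.10 (SE 0.34, edgeR adjusted p = 0.91) and 0.38 (SE 0.39, edgeR adjusted p = 0.576). These were the only ones above 0 among the members in the main edgeR fits of *Smg6*-iKO. With the embryo as a block 3 members were above 0 against Ctr.

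In the main edgeR fit the H3 genes held 8 of the 13 calls against Ctr + 4-OHT. DESeq2's Wald test called 22 members, more than the 11 H3 genes tested, and the difference between types was not tested. *Hist1h3d* (ENSMUSG00000099583, chr13:23575763-23577011), which codes for the first of the H3 proteins, had the smallest p of all members. It stood at 96.1, 87.1 and 101 CPM in Ctr, 90.1, 88.7, 96.2 and 87.6 CPM in Ctr + 4-OHT and 60.7, 69.7, 64.6 and 65.3 CPM in *Smg6*-iKO. The highest *Smg6*-iKO value was well under the lowest control value, and the log2 fold change was -0.47 (SE 0.058, edgeR adjusted p = 0.00543) against Ctr + 4-OHT and -0.54 (SE 0.068, edgeR adjusted p = 0.00234) against Ctr. *Hist1h3a* (chr13:23761853-23762386), a gene of the second H3 protein, had 43.9, 39.2 and 49.5 CPM in Ctr, 49.0, 41.6, 45.4 and 49.5 CPM in Ctr + 4-OHT and 31.6, 30.9, 29.4 and 34.4 CPM in *Smg6*-iKO. Its groups did not overlap, and it changed by -0.54 (SE 0.075, edgeR adjusted p = 0.00882) and -0.48 (SE 0.083, edgeR adjusted p = 0.00809). *Hist1h3g* (chr13:23535422-23535951), of the same protein, had 58.1, 57.0 and 63.9 CPM in Ctr, 58.5, 49.3, 57.4 and 58.2 CPM in Ctr + 4-OHT and 38.6, 40.7, 36.9 and 43.2 CPM in *Smg6*-iKO. With -0.48 (SE 0.075, edgeR adjusted p = 0.0178) and -0.58 (SE 0.069, edgeR adjusted p = 0.00162) it had the largest fall of all members against Ctr. *Smg6*-iKO again lay below all control libraries.

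*Hist1h3i* (chr13:21782960-21783370) had the highest level per annotated length of the H3 genes (181 CPM per kb), closely followed by *Hist1h3e* (179 CPM per kb). It had 90.4, 65.6 and 83.1 CPM in Ctr, 82.6, 79.6, 87.8 and 80.7 CPM in Ctr + 4-OHT and 57.8, 67.3, 56.0 and 65.7 CPM in *Smg6*-iKO. *Smg6*-iKO did not overlap with Ctr + 4-OHT, but Ctr of embryo SMH_132 lay within the *Smg6*-iKO range. The log2 fold change was -0.41 (SE 0.070, edgeR adjusted p = 0.0243) against Ctr + 4-OHT and -0.37 (SE 0.11, edgeR adjusted p = 0.0534) against Ctr, where the block gave -0.33 (edgeR adjusted p = 0.00026). *Hist1h3h* had -0.50 (SE 0.087, edgeR adjusted p = 0.0276) and -0.20 (SE 0.11, edgeR adjusted p = 0.284), with -0.18 (edgeR adjusted p = 0.0468) under the block. Of its windows 6.08% were distinct. The remaining Hist1 H3 genes called against both controls were *Hist1h3b* (-0.39 and -0.53), *Hist1h3c* (-0.52 and -0.40) and *Hist1h3e* (-0.29 and -0.48), in log2 fold change against Ctr + 4-OHT and against Ctr. *Hist1h3f* was called against Ctr (-0.51) and had -0.29 (SE 0.073, edgeR adjusted p = 0.0892) against Ctr + 4-OHT. By protein, 4 of the 7 tested genes of the first H3 protein and 4 of 4 of the second were called against Ctr + 4-OHT, and 6 and 2 against Ctr. The difference between the proteins was not tested.

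The H4 genes encode the same protein, and 2 of 12 were called against Ctr + 4-OHT and 10 of 12 against Ctr, a difference that was not tested. *Hist1h4f* (ENSMUSG00000069274, chr13:23551258-23551648) had 77.5, 68.7 and 83.6 CPM in Ctr, 81.4, 74.1, 87.4 and 79.1 CPM in Ctr + 4-OHT and 57.3, 57.8, 52.5 and 65.6 CPM in *Smg6*-iKO. Every *Smg6*-iKO value was below every control value. The log2 fold change was -0.46 (SE 0.077, edgeR adjusted p = 0.0243) against Ctr + 4-OHT and -0.39 (SE 0.086, edgeR adjusted p = 0.0213) against Ctr. *Hist1h4i* (chr13:22040636-22041362), the only other H4 gene called in both, had 71.7, 65.1 and 73.8 CPM in Ctr, 68.3, 64.1, 67.2 and 59.2 CPM in Ctr + 4-OHT and 46.7, 50.3, 49.8 and 54.4 CPM in *Smg6*-iKO. It changed by -0.35 (SE 0.068, edgeR adjusted p = 0.0386) and -0.48 (SE 0.069, edgeR adjusted p = 0.00381). The groups did not overlap. *Hist1h4b* (chr13:23757013-23757409) had 67.9, 73.0 and 83.0 CPM in Ctr, 76.2, 65.2, 73.3 and 76.7 CPM in Ctr + 4-OHT and 51.2, 49.98, 54.8 and 63.4 CPM in *Smg6*-iKO. Its *Smg6*-iKO libraries lay below all controls, and the change was -0.40 (SE 0.086, edgeR adjusted p = 0.0591) against Ctr + 4-OHT and -0.44 (SE 0.093, edgeR adjusted p = 0.0185) against Ctr. The annotation places *4930558J22Rik* on the opposite strand there, and counting used the strand.

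*Hist1h4h* (chr13:23531050-23531519) had the highest level per annotated length of all members, 479.6 CPM per kb. It had 261, 239 and 283 CPM in Ctr, 264, 213, 218 and 224 CPM in Ctr + 4-OHT and 176, 188, 191 and 223 CPM in *Smg6*-iKO. *Smg6*-iKO of embryo SMH_133 lay within the range of Ctr + 4-OHT, and the other 3 libraries below it. All 4 were below Ctr. The log2 fold change was -0.23 (SE 0.088, edgeR adjusted p = 0.221) against Ctr + 4-OHT and -0.42 (SE 0.085, edgeR adjusted p = 0.0152) against Ctr. The other Hist1 H4 genes above 1 CPM (*Hist1h4a*, *Hist1h4c*, *Hist1h4d*, *Hist1h4j* and *Hist1h4k*) ranged from -0.34 (*Hist1h4a*) to -0.23 (*Hist1h4c*) against Ctr + 4-OHT without passing the test. Against Ctr all 5 were called, between -0.51 (*Hist1h4k*) and -0.39 (*Hist1h4a*). *Hist1h4n* had 0.175 to 1.001 CPM in the 11 libraries, with log2 fold changes of -0.84 (SE 0.48, edgeR adjusted p = 0.413) and -0.079 (SE 0.41, edgeR adjusted p = 0.93), and 0.13 (edgeR adjusted p = 0.857) under the block. *Hist1h4m* was not tested, with 0 to 7 counts per library.

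**Figure D4:**
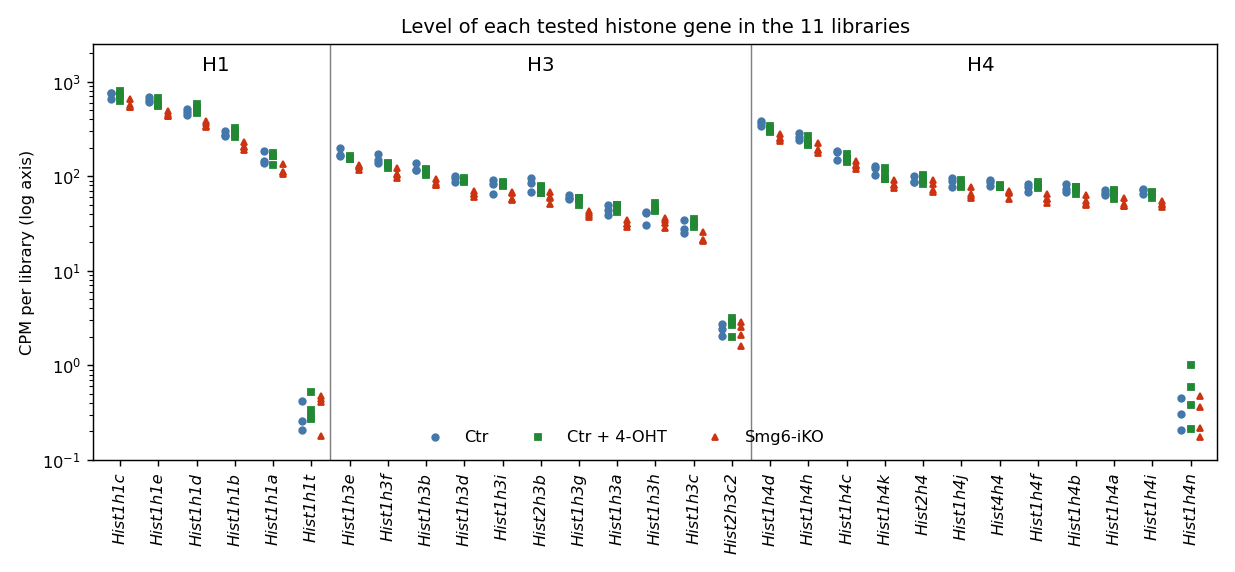
CPM per library (log axis) of the 29 tested members, ordered by type and by mean level. Circles are the 3 Ctr, squares the 4 Ctr + 4-OHT and triangles the 4 *Smg6*-iKO libraries. In 15 members every triangle is below every circle and square, and 3 members lie near or below 3 CPM.

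Outside Hist1 the median fold change was smaller in size. The 4 tested members had a median log2 fold change against Ctr + 4-OHT of -0.24 with 0 called by edgeR (3 had an unadjusted p under 0.05, and DESeq2 called *Hist4h4*), and of -0.30 against Ctr with 2 called. The 25 tested Hist1 members had medians of -0.39 and -0.42, with 13 and 21 called. Against Ctr + 4-OHT the 4 members outside Hist1, at -0.27 to -0.24, lay within the range of the Hist1 members. *Hist1h4c* and *Hist1h4h*, for example, each had -0.23. Against Ctr, *Hist2h3b* and *Hist4h4* lay within that range. The 4 hold no H1 gene and include *Hist2h3c2*, with a mean of 2.45 CPM. The difference between the clusters was not tested. *Hist2h4* (chr3:96261682-96263311), whose windows were 99.0% distinct, had 86.9, 86.1 and 101 CPM in Ctr, 103, 90.7, 97.8 and 83.5 CPM in Ctr + 4-OHT and 68.2, 71.2, 83.0 and 91.1 CPM in *Smg6*-iKO. *Smg6*-iKO of embryo SMH_133 lay within both control ranges, and the other 3 libraries below them. Its log2 fold change was -0.25 (SE 0.10, edgeR adjusted p = 0.244) against Ctr + 4-OHT and -0.22 (SE 0.10, edgeR adjusted p = 0.191) against Ctr, where the block gave -0.16 (edgeR adjusted p = 0.0367). *Hist2h3b* (chr3:96268654-96269141), an H3 gene that overlaps *Gm20628* on the opposite strand, had 85.2, 68.3 and 96.2 CPM in Ctr, 78.8, 66.9, 65.9 and 77.3 CPM in Ctr + 4-OHT and 50.7, 60.0, 58.9 and 68.5 CPM in *Smg6*-iKO. One *Smg6*-iKO library, of embryo SMH_133, lay within both control ranges. It changed by -0.27 (SE 0.10, edgeR adjusted p = 0.196) and -0.48 (SE 0.12, edgeR adjusted p = 0.0317).

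*Hist4h4* (chr6:136801553-136804415), the single H4 gene on chromosome 6, had 91.5, 78.2 and 86.3 CPM in Ctr, 76.3, 77.6, 79.9 and 78.9 CPM in Ctr + 4-OHT and 57.9, 69.2, 67.2 and 68.5 CPM in *Smg6*-iKO. All *Smg6*-iKO values were below all control values. The log2 fold change was -0.24 (SE 0.064, edgeR adjusted p = 0.104) against Ctr + 4-OHT and -0.38 (SE 0.077, edgeR adjusted p = 0.0166) against Ctr. *Hist2h3c2* (chr3:96238108-96239127) was counted at 2.7, 2.43 and 2.03 CPM in Ctr, 2.9, 2.68, 3.13 and 2.01 CPM in Ctr + 4-OHT and 1.6, 2.9, 2.52 and 2.09 CPM in *Smg6*-iKO. Its groups overlapped, with log2 fold changes of -0.24 (SE 0.21, edgeR adjusted p = 0.613) and -0.082 (SE 0.21, edgeR adjusted p = 0.843), and 0.066 (edgeR adjusted p = 0.807) under the block. *Hist2h3c1* had 0 counts in all 11 libraries. It overlaps *Gm20634* on the same strand, and reads that fell on both were not counted.

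Within Hist1, the members lie on chromosome 13 in 2 stretches separated by 1490 kb. The first spans 324 kb (chr13:21717659-22041362, 8 members) and the second 233 kb (chr13:23531050-23764406, 18 members). In the first, 4 of 7 tested members were called lower against either control, with median log2 fold changes of -0.41 against Ctr + 4-OHT and -0.41 against Ctr. In the second, 9 of 18 were called against Ctr + 4-OHT and 17 of 18 against Ctr, with medians of -0.38 and -0.43. Called members of all types stood side by side with members that did not pass, and both stretches held all 3 types.

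**Figure D5:**
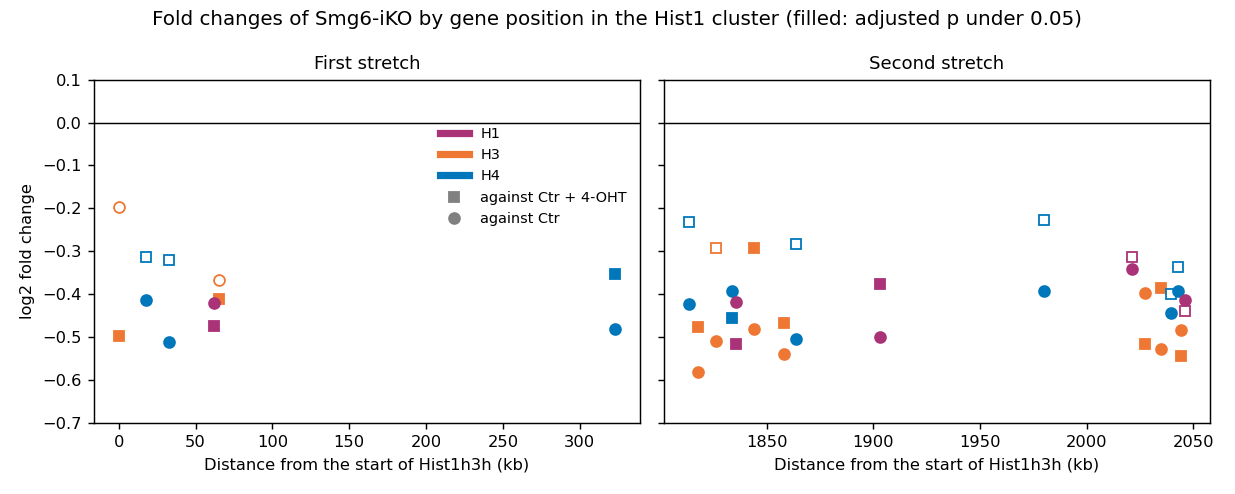
Log2 fold change of *Smg6*-iKO (vertical axis) against the distance of each Hist1 member from the start of *Hist1h3h* in kb, for 23 members in the 2 stretches of chromosome 13. Squares are against Ctr + 4-OHT, circles against Ctr, colours the histone type, and filled symbols have an edgeR adjusted p under 0.05. All points lie below 0 in both stretches, between -0.58 and -0.20. *Hist1h1t* and *Hist1h4n* are left out.

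The calls were also counted by how much of each gene is distinct. Of the 19 tested members with at least 50% distinct windows, 8 were called against Ctr + 4-OHT and 17 against Ctr, with medians of -0.34 and -0.41. Of the 10 with fewer, 5 and 6 were called, with medians of -0.39 and -0.46. By stem-loop, the 7 tested members with the first sequence shown (H1 and H3 genes) had medians of -0.39 and -0.48, and the 6 with the second (H4 genes) -0.26 and -0.39. The third (H3 genes and *Hist1h1t*), in 4 tested members, had -0.29 and -0.44. Within H4, the 2 members with the fourth sequence had -0.30 and -0.35, and the 2 with the fifth -0.36 and -0.43. H1 and H3 genes share their sequences and H4 genes have others, and the differences between sequences were not tested.

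The promoters were read from RefSeq on GRCm38.p6, 250 bases before to 50 after the start, for the 28 members with an entry. They were searched on both strands for CCAAT, bound by the factor NF-Y, and TATAAA, the core of the TATA box. CCAAT was in 19 of 28 member promoters (67.9%) and in 37.4% of 32851 promoters of all genes. It was in 6 of 6 H1 and 10 of 10 H3 promoters and in 3 of 12 H4 promoters. TATAAA was in 16 of 28 (57.1%), compared with 13.6% of all promoters. On the sense strand at 25 to 35 bases before the start, the usual place of a TATA box, it was in 7 of 28 (25%), namely 4 H1, 2 H3 and 1 H4 promoter, and in 1.75% of all promoters. This window was set after the positions were seen. The promoters of the H1 and the H4 gene with the smallest p against Ctr + 4-OHT are shown, with matches to either motif in capitals.
Hist1h1d (chr13:23554782-23555081, forward strand): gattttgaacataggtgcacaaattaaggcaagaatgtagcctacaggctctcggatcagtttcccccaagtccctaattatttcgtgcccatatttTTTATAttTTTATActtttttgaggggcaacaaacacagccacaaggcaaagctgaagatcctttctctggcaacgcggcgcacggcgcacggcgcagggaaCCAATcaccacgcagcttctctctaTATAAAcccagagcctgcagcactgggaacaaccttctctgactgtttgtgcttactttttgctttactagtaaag
Hist1h4f (chr13:23551619-23551918, reverse strand): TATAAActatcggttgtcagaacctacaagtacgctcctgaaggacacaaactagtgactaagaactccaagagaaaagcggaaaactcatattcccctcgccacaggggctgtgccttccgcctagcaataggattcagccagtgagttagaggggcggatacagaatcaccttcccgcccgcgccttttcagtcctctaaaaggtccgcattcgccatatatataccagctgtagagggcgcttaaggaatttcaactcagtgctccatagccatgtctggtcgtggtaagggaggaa
In *Hist1h1d* a TATAAA lay 26 bases before the start and a CCAAT upstream of it. In *Hist1h4f* the single TATAAA lay at the far end of the window, and no CCAAT was found.

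The histone genes H2A and H2B, which complete the nucleosome and are made at the same time, were counted alike. Of 31 tested of 39, 19 were called lower against Ctr + 4-OHT (0.416% of all genes) and 24 against Ctr (4.98% of all genes), with medians of -0.42 and -0.48, and 0 of 31 were called higher by edgeR in either. 24 and 27 had an unadjusted p under 0.05, compared with 16.7% and 26.9% of all genes. Under the block 28 were lower (11.2% of all genes). DESeq2 was not counted for this list.

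The genes that make and degrade histone mRNA were examined as a list of 43 genes. Against Ctr + 4-OHT, 0 of 43 were called by edgeR, although 18 had an unadjusted p under 0.05 (16.7% of all genes) and 30 were below 0. Against Ctr, 7 were lower and 0 higher, where 4.98% and 4.27% of all genes were, and with the block 15 were lower and 3 higher, where 11.2% of all genes were lower and 10.3% higher. *Npat*, the S phase coactivator of histone transcription, had 95.6, 96.9 and 89.1 CPM in Ctr, 81.2, 91.3, 92.5 and 83.8 CPM in Ctr + 4-OHT and 79.1, 81.2, 76.3 and 75.7 CPM in *Smg6*-iKO. *Smg6*-iKO lay below Ctr in all embryos and overlapped with Ctr + 4-OHT in one library. Its log2 fold change was -0.15 (SE 0.059, edgeR adjusted p = 0.237) against Ctr + 4-OHT and -0.27 (SE 0.055, edgeR adjusted p = 0.0174) against Ctr. *Slbp* had 49.96, 50.6 and 55.1 CPM in Ctr, 51.4, 49.4, 53.5 and 51.5 CPM in Ctr + 4-OHT and 42.8, 46.5, 43.0 and 44.0 CPM in *Smg6*-iKO. Every *Smg6*-iKO library was below every control library. Its log2 fold changes were -0.21 (SE 0.055, edgeR adjusted p = 0.0958) and -0.23 (SE 0.059, edgeR adjusted p = 0.0354). *Casp8ap2* (FLASH, which works in histone mRNA processing) had 56.6, 64.7 and 65.0 CPM in Ctr, 69.3, 54.4, 64.0 and 72.3 CPM in Ctr + 4-OHT and 63.6, 61.7, 59.8 and 64.8 CPM in *Smg6*-iKO. Its groups overlapped, with -0.046 (SE 0.084, edgeR adjusted p = 0.832) and 0.010 (SE 0.066, edgeR adjusted p = 0.946) on the log2 scale.

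*Pou2f1* (OCT1, which binds H2B promoters) had a log2 fold change of -0.28 (SE 0.055, edgeR adjusted p = 0.0152) and the kinase gene *Cdk2*, whose product activates NPAT, of -0.28 (SE 0.067, edgeR adjusted p = 0.0299) against Ctr. Against Ctr + 4-OHT these genes had -0.054 (SE 0.057, edgeR adjusted p = 0.686) and -0.35 (SE 0.075, edgeR adjusted p = 0.0566). Of the 8 histone chaperone genes in the list, *Asf1a* (-0.21), *Hat1* (-0.31) and *Rbbp4* (-0.18) were called lower against Ctr (4.98% of all genes). All 8 were below 0 against either control. An unadjusted p under 0.05 was seen in 8 against Ctr + 4-OHT (16.7% of all genes) and in 7 against Ctr (26.9%). With the block 6 were called lower (11.2% of all genes). Of the 11 decay genes, 0 were called against Ctr by edgeR (4 with an unadjusted p under 0.05, against 26.9% of all genes). With the block *Eri1*, the exonuclease that trims histone mRNA at its stem-loop, had -0.19 (edgeR adjusted p = 0.0155) and *Upf1* 0.22 (edgeR adjusted p = 0.0124). *Tut7*, a uridylyl transferase, had 0.15 (edgeR adjusted p = 0.0292) in that fit and *Tut4* -0.13 (edgeR adjusted p = 0.0493). *Prkdc*, the catalytic subunit of DNA-dependent protein kinase, had 0.23 (edgeR adjusted p = 0.0128).

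Genes of S phase were examined as a list of 25. The 25 genes, 3 of which are also in the histone mRNA list, summed to 1511 to 1657 CPM in *Smg6*-iKO, 1733 to 2073 CPM in Ctr + 4-OHT and 1751 to 2065 CPM in Ctr. The *Smg6*-iKO range was below both control ranges. All 25 had a log2 fold change below 0 against either control, with medians of -0.29 and -0.28. Only *Mcm3*, a subunit of the replicative helicase, was called against Ctr + 4-OHT, at -0.33 (SE 0.064, edgeR adjusted p = 0.0407), where 0.416% of all genes were lower, and 22 of 25 had an unadjusted p under 0.05 (16.7% of all genes). 13 of 25 were called lower against Ctr (4.98% of all genes). With the block 19 were (11.2% of all genes). The summed levels carry no test. Against Ctr, 5 of the 10 neural progenitor markers were also called lower, and of the 6 neuronal markers 0 were called by edgeR, with all 6 above 0 and 4 at an unadjusted p under 0.05 (26.9% of all genes). With the block 6 of the 10 progenitor markers were lower and 4 of the neuronal markers higher, where 11.2% of all genes were lower and 10.3% higher. Against Ctr + 4-OHT 0 of the progenitor or neuronal markers were called, with 3 and 0 at an unadjusted p under 0.05 (16.7% of all genes). In Ctr + 4-OHT against Ctr all 6 neuronal markers were also above 0, with a median of 0.28. The neuronal medians of *Smg6*-iKO were 0.31 against Ctr and 0.043 against Ctr + 4-OHT. Between the controls 8 of the 10 progenitor markers were below 0, and all 4 tested oligodendrocyte lineage markers were above 0. Of the 4 astrocyte markers, *Gfap*, an intermediate filament of astrocytes, was called higher against Ctr at 1.33 (SE 0.32, edgeR adjusted p = 0.0288), with 26.2, 16.1 and 10.6 CPM in Ctr, 21.4, 11.5, 5.14 and 78.2 CPM in Ctr + 4-OHT and 63.6, 47.6, 40.4 and 25.7 CPM in *Smg6*-iKO. *Smg6*-iKO overlapped with both controls, and the block gave 1.13 (edgeR adjusted p = 5.96e-08). With the block 2 of 4 tested astrocyte markers, 3 of 4 tested oligodendrocyte lineage markers and 1 of 3 markers of fibroblasts and meninges were called higher, where 10.3% of all genes were. The summed astrocyte markers ranged from 436.5 to 509.9 CPM in Ctr, 454.5 to 505.9 CPM in Ctr + 4-OHT and 427.9 to 515.7 CPM in *Smg6*-iKO, and those of the oligodendrocyte lineage from 567.6 to 638.6, 649.8 to 847.9 and 572.0 to 685.3 CPM. Those of fibroblasts and meninges ranged from 52.4 to 77.9, 39.6 to 141.1 and 36.9 to 247.6 CPM. Against Ctr + 4-OHT 0 markers of these 3 lists were called, and 0 had an unadjusted p under 0.05. The part of S phase genes and of cell type markers in the result for the histone genes was not tested.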

How the data were processed

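The authors deposited, for each library, one raw count per Ensembl gene. Per the study's methods and the submitters' processing notes, total RNA depleted of ribosomal RNA was sequenced as stranded single reads of 50 bases (bcl2fastq 1.8.4), mapped to GRCm38 with STAR 2.5.4b and counted on Ensembl genes with featureCounts 1.5.0, leaving out reads with several positions or genes. Counts per library summed to 26418249 to 33756875. The error given covers counting and the spread between embryos.

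Symbols came from GENCODE M21. Genes passing filterByExpr were tested in R 4.3.3 with edgeR 4.0.16 (TMM, quasi-likelihood test, Benjamini-Hochberg adjustment, threshold 0.05), each comparison on its own 2 groups. A standard error (SE) was taken as the log2 fold change over the root of its F statistic. CPM used TMM factors over the 11 libraries. Within an embryo, the deviations of the *Smg6*-iKO and the Ctr library from their group means correlated with r of 0.328, 0.399 and 0.425 over 18123 genes (different embryos -0.265 to 0.0948), so the embryo was a block in an alternative fit. Chi-square per gene between libraries of a group was 9.99 to 38.6, so none was a duplicate. The fit was tested on simulated data.

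Values per library are given for the 3 members of each type with the smallest p against Ctr + 4-OHT, the highest count per kb of each type, members outside Hist1 and members with a log2 fold change above 0, and outside the members for *Smg6*, *Slbp*, *Npat*, *Casp8ap2* and, as fold changes, called genes of the histone mRNA list. *Gfap* was added after its values were seen. Members and lists were chosen with earlier results of these data known. *Srrt*, *Tut7* and *Tut4* were matched under these symbols, not as *Ars2*, *Zcchc6* and *Zcchc11*. Alternatives were DESeq2 1.42.0 (size factors or Wald test), upper-quartile scaling, limma-voom (limma 3.58.1), no filter or at least 10 counts per library, all libraries in one fit, a gene length correction (loess span 0.3), the block, and each library left out. Stem-loops, translations and windows were computed from GENCODE M21 transcripts, promoters read from RefSeq. Figures used Python 3.11.15 and matplotlib 3.10.9.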

Additional observations from a re-analysis of the deposited data

Results flagged for a closer look

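In 58 groups of 4 libraries, 1 for each tested member and group of 4, the highest or lowest library was compared with the rest by Dixon's test, which by chance picks about 1 group in 20. In 2 of them a library stood apart. *Hist1h3g* had 49.3 CPM in Ctr + 4-OHT of embryo SMH_126, below the other 3 libraries of that group at 57.4 to 58.5 CPM. *Hist1h1a* had 135.9 CPM in *Smg6*-iKO of embryo SMH_133, above the other 3 at 106.5 to 111.1 CPM.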

How the results depend on the processing

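No member was called higher in any comparison under the alternatives run, and 0 were called between the controls. Against Ctr + 4-OHT the 13 members called lower became 22 with DESeq2's Wald test, 7 with the gene length correction and 2 to 11 with a library left out. The cause was not tested, beyond that a fit with a library left out holds fewer samples. Against Ctr the 23 members called became 14 to 23 with a library left out. It was 18 with the length correction, 26 with the embryo as a replicate block and 24 with both, and the block made *Hist1h3h*, *Hist1h3i* and *Hist2h4* pass without ending a call of another member. The ratios of summed CPM, recomputed with DESeq2's size factors and with each library left out, moved by less than their replicate spread. *Hist2h3c2*, one of the members with the lowest levels, turned against Ctr to 0.066 with the block, to 0.12 with block and length correction, and ranged from -0.22 to 0.059 with a library left out. *Hist1h4n*, under or near 1 CPM, turned against Ctr to 0.13 with the block, 0.021 with the length correction and 0.22 with both, and ranged from -0.31 to 0.25 with a library left out, where it was tested. *Hist1h1t*, under 1 CPM, ranged from -0.033 to 0.36 against Ctr + 4-OHT with a library left out. Between the controls, where none passed the test, *Hist1h4b* turned to 0.041 and *Hist1h4a* to 0.025 with the length correction, and with a library left out the log2 fold changes of *Hist1h1a* ranged from -0.046 to 0.18, *Hist1h4a* from -0.089 to 0.014, *Hist1h1c* from -0.089 to 0.045, *Hist1h3a* from -0.0096 to 0.17, *Hist1h3i* from -0.069 to 0.15, *Hist1h4b* from -0.098 to 0.055, *Hist1h4f* from -0.00042 to 0.15 and *Hist2h4* from -0.0031 to 0.12. Of the other values for single members, 1205 kept direction and call, and 107 lost and 29 gained the call with their direction kept. With at least 10 counts in every library *Hist1h1t* and *Hist1h4n* were not tested. Over all genes, *Smg6*-iKO against Ctr gave 896 lower and 767 higher, and 694 and 1089 with upper-quartile scaling. These 1663 genes became 3854 with the block, 570 without *Smg6*-iKO of embryo SMH_133 and 2524 without that of SMH_128 (the extremes with a library left out), 796 with all libraries in one fit and 2714 without a filter. Against Ctr + 4-OHT it called 206 genes in all, and 873 with DESeq2's Wald test, 484 with all libraries in one fit, 418 without a filter and 66 (without *Smg6*-iKO of embryo SMH_132) to 174 with a library left out, and the controls differed in 39, 169, 60, 198 and 5 to 54. Genes under 1 CPM and those with few distinct windows limit what can be said of single members.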

Other observations

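Replacement histones are also made outside S phase. Of 11 genes of replacement and variant histones, *H2afx*, whose product marks DNA breaks when phosphorylated, was called lower against Ctr + 4-OHT, where 0.416% of all genes were (log2 fold change -0.34, SE 0.064, edgeR adjusted p = 0.0350), with 96.2 ± 3.51 CPM (SD, n = 4) in *Smg6*-iKO. Against Ctr, 5 of 11 were lower, compared with 4.98% of all genes: *H2afx*, *H2afz*, *H2afv*, *H3f3b* and *Cenpa*, the centromeric H3. *H1f0*, the linker histone of resting cells, had log2 fold changes of -0.14 and -0.12 and did not pass the test against either control. The 11 genes had medians of -0.14 against Ctr + 4-OHT and -0.17 against Ctr.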
